A study of Caenorhabditis elegans with 4 samples.

Results

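The ceh genes of Caenorhabditis elegans are the homeobox genes that carry a numbered ceh name. Members were all genes whose symbol in the RefSeq gene table of assembly WBcel235 is ceh- followed by a digit. That table holds 65 such symbols, and 61 of them had values in the deposited expression table, out of 41614 genes with a matched symbol. The other 4, ceh-16, ceh-21, ceh-83 and ceh-85, were not analysed here, and ceh-85 is annotated as a pseudogene. Transcript levels came from whole larvae of the first larval stage (L1), synchronized and grown at 25 degrees Celsius. Wild type, the control, and the dve-1(uf171) mutant had 2 libraries each. All were fed the bacterial strain OP50. The labels give neither the strain background nor the lesion of the uf171 allele. Each library pooled many larvae. Whether replicates were separate cultures is not stated, and p-values therefore describe the spread between these libraries alone, which may be technical.

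Homeobox genes encode transcription factors that bind DNA through the homeodomain, a compact helical domain whose recognition helix lies in the major groove. They fall into classes by the sequence of that domain and by accompanying domains, such as the POU, CUT, LIM and PBC classes, and in C. elegans each neuron class is known to carry its own combination of homeobox genes. Many are also used in the embryo, to place cells along the body axis and to start organs such as the pharynx. DVE-1 also carries homeodomains and acts in the response to unfolded proteins in mitochondria. The comparison here asks which ceh transcripts are present in L1 larvae and whether they differ in the mutant.

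The unit is FPKM, a fragment count divided by transcript length and by sequencing yield, summed over the RefSeq transcripts of a gene. Values are scaled by length, so levels of different genes can be set side by side. The table gives no read counts, so the depth behind a value is unknown, and a value of 0 is given only as listed. Summed over all transcripts, FPKM ranged from 2.05e+06 to 2.39e+06 per library. For the targeted gene dve-1 wild type had 15.1 and 19.5 FPKM against 23.4 and 25.5 in the mutant, and what the allele does to the RNA is not stated, so these values do not check the labels. In whole animals, fewer cells of a type and less RNA per cell cannot be told apart. The embryo markers end-1 and tbx-35, genes of early endoderm and mesoderm, were at or near 0 (at most 0.0594 FPKM in any library), end-3 reached 1.08 FPKM, and med-2 and pes-1 ranged from 2.64 to 4.99 FPKM. The 5 adult markers with values (4 vitellogenins and the adult collagen col-19) summed to 0.249 and 2.21 FPKM in wild type and to 3.68 and 0.361 FPKM in the mutant.

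Most ceh genes were expressed in L1. In wild type 46 of 61 (75.4%) stood at 1 FPKM or more in both libraries, against 65.4% of 17970 protein-coding genes. The same count, 46, was reached in the mutant, and all 46 reached 1 FPKM in both libraries of both genotypes. No member reached 1 FPKM in both libraries of 1 genotype alone, and among protein-coding genes 2.22% did so in wild type alone and 3.31% in the mutant alone, so a count of 0 is near that background. Levels were moderate. The expressed ceh genes had a median wild-type mean of 9.67 FPKM, against 17.2 FPKM for expressed protein-coding genes, and 22 members reached 10 FPKM and 9 reached 20 FPKM in both wild-type libraries. All 61 members together summed to 695 ± 52.4 FPKM in wild type and 695 ± 56.5 FPKM in the mutant (SD, n = 2). As a share of the FPKM of all matched genes this was 0.0348% and 0.0397% in wild type against 0.0415% and 0.0404% in the mutant. The equality of the sums thus depends on the scaling.

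**Figure D1:**
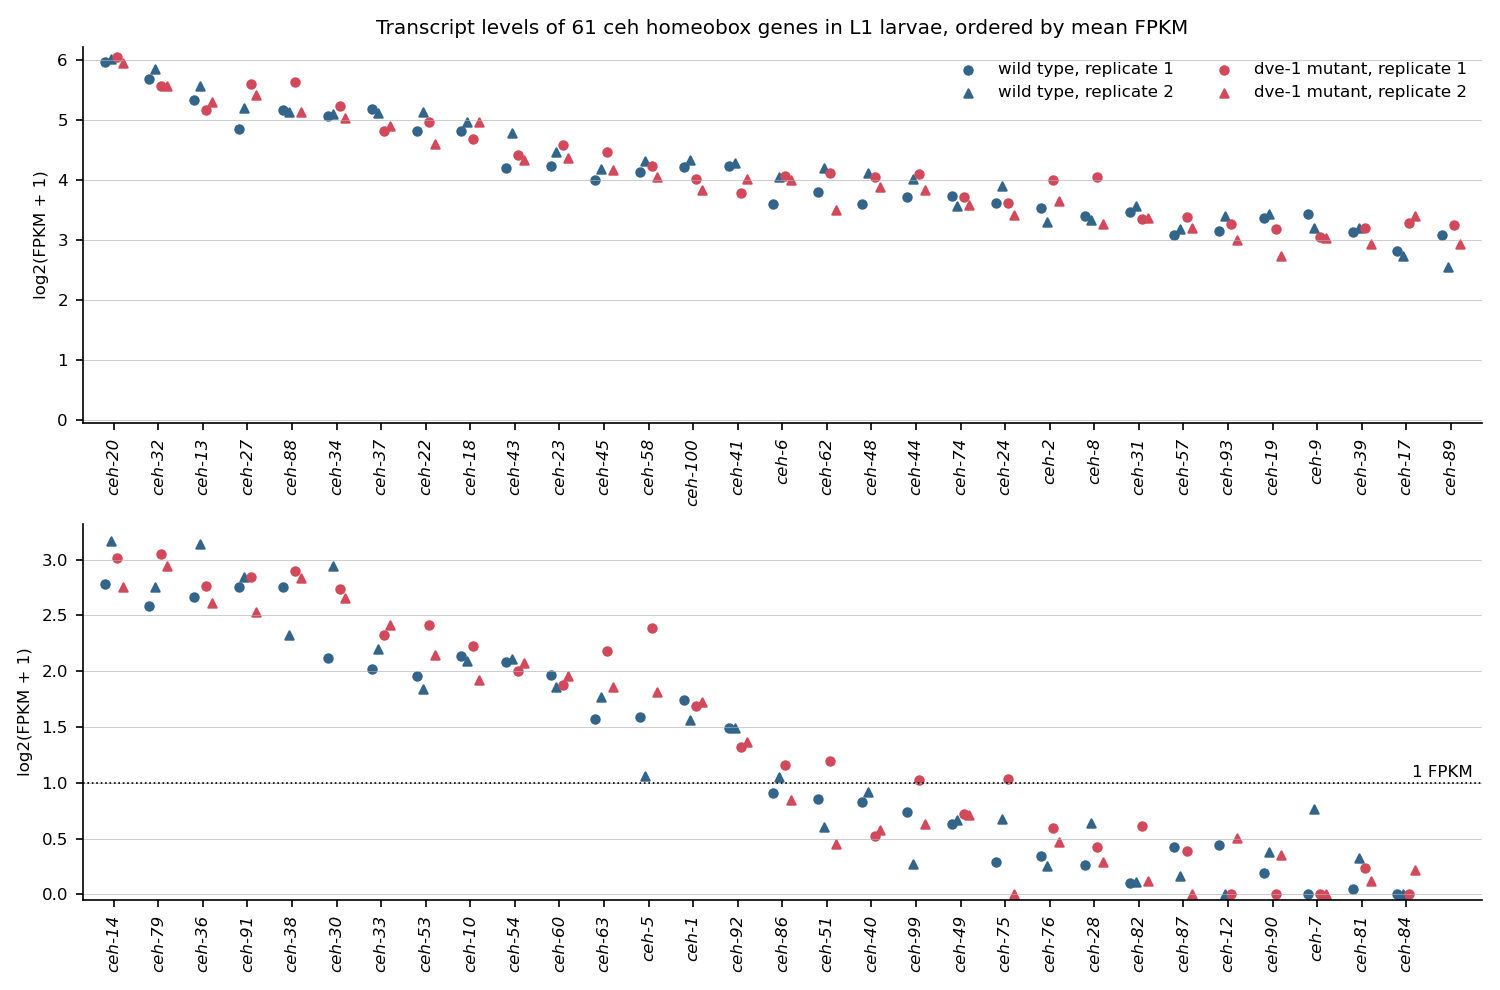
Level of each of the 61 ceh genes with values, as log2(FPKM + 1), in the 2 wild-type (blue) and 2 dve-1 mutant (red) libraries, ordered by mean FPKM; the dotted line in the lower panel marks 1 FPKM. The 4 libraries lie close together for the most abundant gene, ceh-20, at 61.2 to 65.2 FPKM, and further apart for ceh-27, at 27.9 to 47.5 FPKM. The 15 genes at the right of the lower panel lie around or under 1 FPKM.

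The most abundant member was ceh-20 (F31E3.1, chromosome III, 6979884 to 6981785, WBcel235), which encodes a PBC-class protein related to Extradenticle and known as a cofactor of Hox proteins. Its wild-type libraries had 61.7 and 64.03 FPKM, against 65.2 and 61.2 FPKM in mutants. The groups overlapped, and the mean lay at the 88.4th percentile of protein-coding genes in wild type. The log2 fold change of FPKM + 1, mutant over wild type, was 0.01 (SE 0.10), with a 95% interval of -0.29 to 0.30 (limma adjusted p = 0.991). Its sign turned in 4 of 13 alternative settings, among them both other scalings. The other members of the class were far lower. Values of ceh-60, known for its part in intestinal vitellogenin expression, were 2.91 and 2.64 FPKM in wild type against 2.68 and 2.89 in the mutant. The third, ceh-40, which acts with ceh-20 in the embryo, stood at 0.774 and 0.890 FPKM in wild type against 0.442 and 0.489 in the mutant, under the filter for the test.

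Next in level came a SIX-class and a Hox gene. The gene ceh-32, of the vertebrate SIX3 type and known for head morphogenesis, stood at 50.6 and 57.2 FPKM in wild type against 46.6 and 46.3 in the mutant. The labial-like Hox gene ceh-13, which patterns the anterior embryo, stood at 39.6 and 46.6 FPKM in wild type against 35.03 and 38.6 in the mutant. In both genes each mutant value lay below each wild-type value. Neither passed the test, with log2 fold changes of -0.21 (SE 0.11, 95% interval -0.55 to 0.13) and -0.22 (SE 0.14, 95% interval -0.63 to 0.19; limma adjusted p = 0.581 and 0.623).

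The other SIX-class genes lie side by side on chromosome V, 3616 bp apart. The first, ceh-34, known as a regulator of pharyngeal neurons, stood at 32.7 and 33.3 FPKM in wild type against 36.97 and 32.01 in the mutant. Its neighbour ceh-33 stood at 3.06 and 3.61 FPKM in wild type against 4.004 and 4.33 in the mutant. The level of ceh-34 was thus 7.39 to 10.7 times that of ceh-33 in each of the 4 libraries.

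Unequal levels were seen in other neighbouring pairs as well. The Otx-type genes ceh-36 and ceh-37, known for the fates of chemosensory neurons, lie 10805 bp apart on the X chromosome. In wild type ceh-37 stood at 35.5 and 33.9 FPKM and ceh-36 at 5.33 and 7.83 FPKM. In the mutant ceh-37 stood at 27.3 and 29.02 FPKM, below both wild-type values, and ceh-36 at 5.78 and 5.13 FPKM, overlapping with wild type. The ratio of ceh-37 to ceh-36 ranged from 4.33 to 6.66 over the libraries. Closer to each other in level were the BarH-type genes ceh-31 and ceh-30, the latter known for survival of male-specific sensory neurons. The higher, ceh-31, stood at 10.2 and 10.9 FPKM in wild type against 9.19 and 9.34 in the mutant, and ceh-30 at 3.34 and 6.69 against 5.66 and 5.29 FPKM, a ratio of 1.62 to 3.04. The pair ceh-58 and ceh-57 on chromosome II, 2038 bp apart, had a ratio of 1.88 to 2.35. There ceh-58 stood at 16.6 and 18.96 FPKM in wild type against 17.8 and 15.5 in the mutant, and ceh-57 at 7.49 and 8.08 against 9.50 and 8.25 FPKM. In none of these 4 pairs did the order of the 2 genes change between libraries. It did change in the closest pair with values, ceh-81 and ceh-82 on chromosome II, 267 bp apart and both low, with a ratio of ceh-82 to ceh-81 from 0.322 to 3.003.

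The NK-like list, with 18 members, was the largest class and included genes of the pharynx, head neurons and muscle. Of these, 14 were expressed, and the summed level of all 18 was 184 ± 24.9 FPKM in wild type and 189 ± 24.3 FPKM in the mutant (SD, n = 2). The gene ceh-22, an Nkx2-5-like activator of pharyngeal muscle genes, stood at 27.4 and 34.3 FPKM in wild type against 30.4 and 23.3 in the mutant. The Distal-less homolog ceh-43, needed for dopaminergic neurons, stood at 17.5 and 26.5 FPKM in wild type against 20.4 and 19.2 in the mutant. Both genes differed more between libraries of 1 genotype than between genotype means, and their groups overlapped. The same held for ceh-62, listed at 13.0002 and 17.6 FPKM in wild type against 16.4 and 10.4 in the mutant. Of interneuron and sensory genes, ceh-23 stood at 17.9 and 21.3 FPKM in wild type against 23.1 and 19.7 in the mutant. The NK-2 gene ceh-24, of head motor neurons and non-striated muscle, stood at 11.3 and 13.95 against 11.3 and 9.77 FPKM. Its highest mutant value only just exceeded its lowest wild-type value.

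Of the POU, CUT and LIM genes, 8 of 9 were expressed, the exception being the CUT gene ceh-49 at 0.549 to 0.644 FPKM. The POU gene ceh-18, known from the gonadal sheath and the control of oocyte arrest, stood at 27.3 and 30.5 FPKM in wild type against 24.8 and 30.4 in the mutant, and ceh-6, known from the excretory cell and neurons, at 11.2 and 15.6 against 15.8 and 15.1 FPKM. Both overlapped between genotypes. Of the CUT class, ceh-44 and ceh-48 are known to act in neurons of all kinds. The first stood at 12.1 and 15.3 FPKM in wild type against 16.2 and 13.4 in the mutant, and the second at 11.2 and 16.5 against 15.7 and 13.8 FPKM. Both were lowest in the first wild-type library, and the genotypes overlapped. Among the others ceh-39, an X-chromosome signal in sex determination, stood at 7.81 and 8.21 against 8.17 and 6.66 FPKM, and ceh-38 at 5.75 and 3.998 against 6.48 and 6.15 FPKM. The class as a whole summed to 59.2 ± 5.48 FPKM in wild type and 58.0 ± 2.81 FPKM in the mutant (SD, n = 2). The LIM gene ceh-14, of the Lhx3 type and used in several sensory neurons and interneurons, stood at 5.90 and 7.96 FPKM in wild type against 7.09 and 5.74 in the mutant.

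Paired-like genes were all expressed, 8 of 8. The goosecoid-like gene ceh-45 stood at 15.1 and 17.2 FPKM in wild type against 21.1 and 17.1 in the mutant. The Rax-type gene ceh-8 stood at 9.57 and 9.09 FPKM in wild type against 15.6 and 8.63 in the mutant, so that 1 mutant library stood above the other 3. The gene ceh-10, which specifies the AIY interneuron and the CAN neuron, was low and even, at 3.39 and 3.26 against 3.69 and 2.80 FPKM.

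The 10 other expressed members were put in no class. Of these ceh-88 was the most abundant, at 35.1 and 34.4 FPKM in wild type against 48.97 and 34.2 in the mutant, where only the first mutant library was high. Values of ceh-74 were even, at 12.3 and 10.96 against 12.2 and 10.98 FPKM. Lower values were listed for ceh-93, at 7.94 and 9.59 against 8.71 and 7.03 FPKM, for ceh-89, at 7.48 and 4.86 against 8.51 and 6.69 FPKM, and for ceh-91, at 5.75 and 6.18 against 6.17 and 4.79 FPKM. In each of these genes the genotypes overlapped.

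The 15 remaining members lay at or under about 1 FPKM. Nearest the line, ceh-92 was inside it with 1.82 and 1.81 FPKM in wild type against 1.51 and 1.58 in the mutant, and ceh-86 outside it with 0.872 and 1.07 against 1.24 and 0.802 FPKM. Of the 15, 11 were under 1 FPKM in all 4 libraries, and 6 were listed at 0 in at least 1 library, but 0 members were at 0 in all 4. Among them was ceh-12, the HB9-type gene of VB motor neurons, which arise after hatching, listed at 0.359 and 0 FPKM in wild type against 0 and 0.416 in the mutant. The mesodermal gene ceh-51, which acts in the embryo downstream of tbx-35, stood at 0.809 and 0.524 against 1.28 and 0.365 FPKM. The gene ceh-28, of the pharyngeal M4 neuron, stood at 0.202 and 0.556 against 0.344 and 0.225 FPKM. These members were under the filter of the main test, and none passed when the limma fit was run with no filter on low values. Several low members lie near 1 end of chromosome II. All 5 members with values in the first 3000000 bp of chromosome II (ceh-81, ceh-82, ceh-84, ceh-86 and ceh-87) missed 1 FPKM in at least 1 wild-type library, where 42.6% of the 613 protein-coding genes of that stretch reached it in both. This stretch was chosen after the values were seen.

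Between genotypes, no ceh gene passed the test. Every gene averaging 1 FPKM or more was included in 1 fit with limma on log2(FPKM + 1), with Benjamini-Hochberg adjustment over 15202 genes and a threshold of 0.05. Of the 46 ceh genes tested, 0 were called higher, where 0.303% of all tested genes were, and 0 were called lower, where 1.36% were (1.66% in either direction). At so low a background a count of 0 does not set the ceh genes apart. The smallest adjusted p was 0.309. At an unadjusted p under 0.05 there was 1 ceh gene, ceh-17, or 2.17%, against 11.9% of all tested genes.

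Differences were small and went both ways. The log2 fold change was above 0 in 23 members and below 0 in 23, with a median of -0.001 against 0.09 over all tested genes. The mutant pair lay wholly above the wild-type pair in 10 of 46 members (28.1% of all tested genes) and wholly below it in 10 (15.9%), against 8 above (19% of all tested genes) and 19 below (23.5%) under median-ratio scaling, which lowered the median over all tested genes by 0.106 on the log2 scale. Under that scaling the 8 were 17.4% of the members and the 19 were 41.3%, so the share below exceeded that of all tested genes. Without that scaling, the 20 members apart in either direction were 43.5% of the ceh genes, near the 44% of all tested genes. That nearness thus depends on the scaling. All 46 fold changes lay between -0.44 and 0.77 on the log2 scale. None exceeded 1 in either direction on this scale of FPKM + 1, where 4.97% of tested protein-coding genes did. With 0.1 or 0.01 added to FPKM in place of 1, ceh-5 stood at 1.09 and 1.14. The precision was limited, with a median 95% interval of 0.54 to either side, and for 9 of the 46 members the interval reached a 2-fold change (a log2 of 1) in at least 1 direction.

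**Figure D2:**
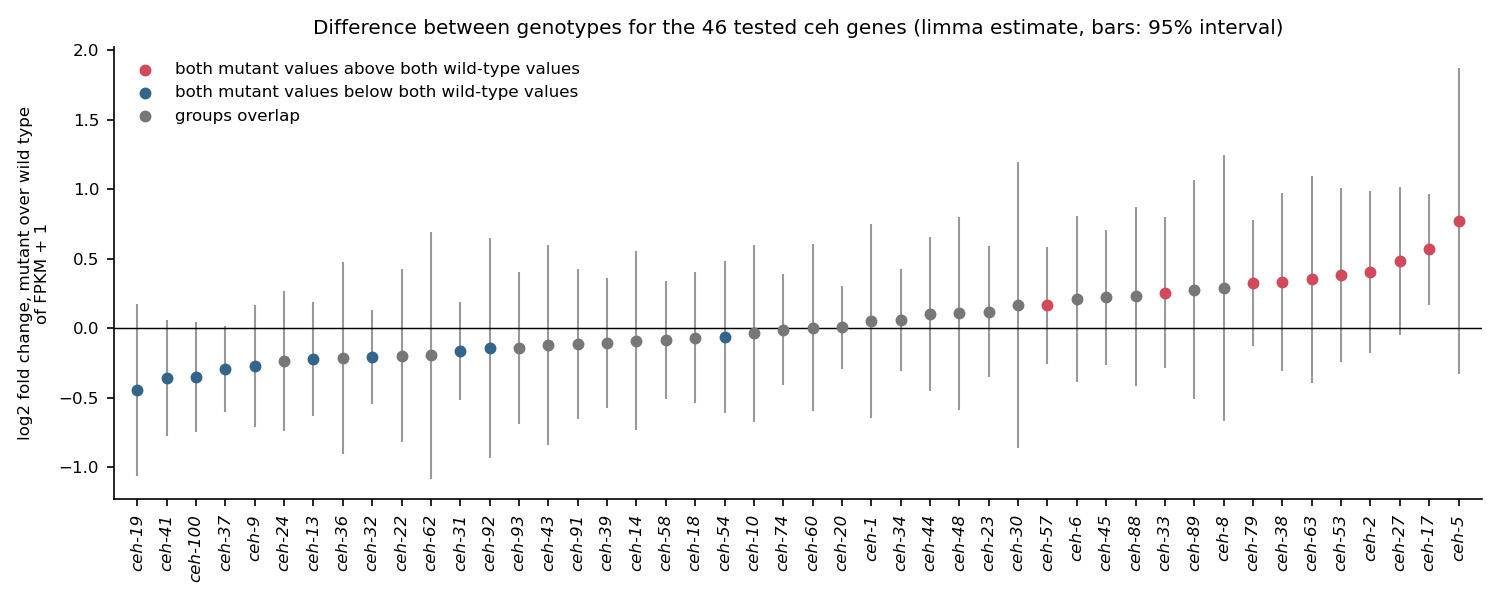
Log2 fold change of FPKM + 1, mutant over wild type, for each of the 46 tested ceh genes (points: limma estimate, bars: 95% interval), coloured by whether the 2 values of each genotype overlap. The estimates run from -0.44 for ceh-19 to 0.77 for ceh-5, and 45 of the 46 intervals hold 0, the exception being ceh-17.

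**Figure D3:**
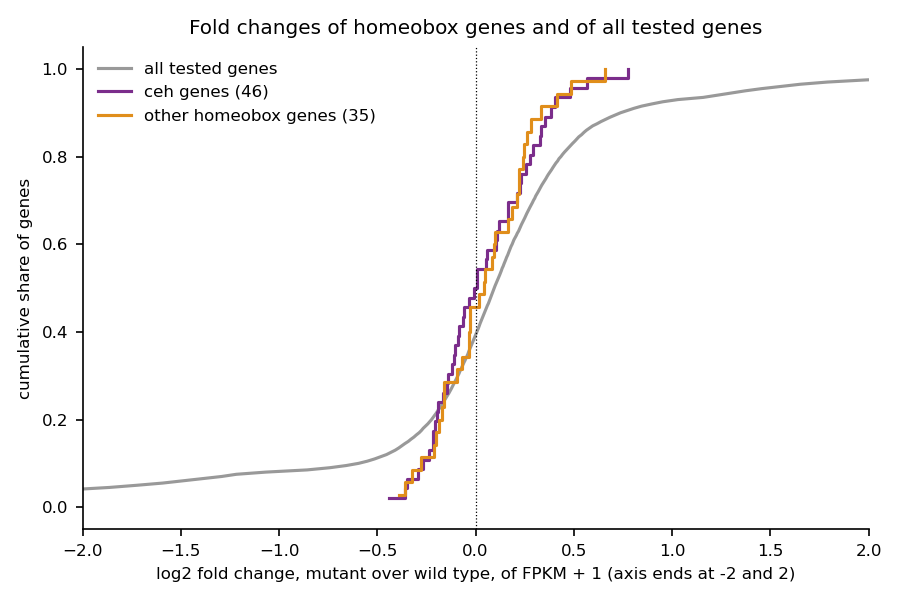
Cumulative share of genes by log2 fold change of FPKM + 1, mutant over wild type, for the tested ceh genes (purple, 46), the other homeobox genes (orange, 35) and all 15202 tested genes (grey, partly beyond the axis). The medians are -0.001, 0.04 and 0.09, and both homeobox curves end within 1 on either side.

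The 5 largest positive differences were in ceh-5, ceh-17, ceh-27, ceh-2 and ceh-53, each with the mutant pair wholly above the wild-type pair and none past the threshold. The gene ceh-17 (D1007.1, chromosome I, 4568765 to 4570027), a Phox2-type gene of the ALA and SIA neurons, stood at 6.04 and 5.66 FPKM in wild type against 8.74 and 9.56 in the mutant. The groups were apart by more than either spread. Its log2 fold change was 0.57 (SE 0.13, 95% interval 0.17 to 0.96), and it did not pass over all genes (limma adjusted p = 0.309). The Vax-type gene ceh-5 stood at 2.02 and 1.09 FPKM in wild type against 4.23 and 2.52 in the mutant, a log2 fold change of 0.77 (SE 0.37, 95% interval -0.33 to 1.87, limma adjusted p = 0.533). Exons of ceh-5 overlap those of ocrl-1 on the other strand, and the sources do not say whether counting used strand. The Emx-type gene ceh-2, of pharyngeal neurons, stood at 10.7 and 8.83 against 14.97 and 11.6 FPKM (log2 fold change 0.40, limma adjusted p = 0.537), and ceh-53 at 2.88 and 2.57 against 4.33 and 3.42 FPKM (0.38, limma adjusted p = 0.58). Outside the 5, ceh-79 was also apart, at 5.02 and 5.76 FPKM in wild type against 7.30 and 6.70 in the mutant. So were ceh-33, ceh-38 and ceh-57, whose values are given above, and ceh-63, at 1.98 and 2.40 against 3.54 and 2.63 FPKM.

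On the lower side, ceh-19, needed for the pharyngeal MC motor neurons, stood at 9.31 and 9.89 FPKM in wild type against 8.09 and 5.68 in the mutant (log2 fold change -0.44, SE 0.21, 95% interval -1.06 to 0.18, limma adjusted p = 0.529). The CUT gene ceh-41 stood at 17.9 and 18.5 FPKM in wild type against 12.8 and 15.3 in the mutant (-0.36, SE 0.14, limma adjusted p = 0.474). The gene ceh-100 stood at 17.7 and 19.2 against 15.3 and 13.3 FPKM (-0.35, SE 0.13, limma adjusted p = 0.462). In these 3 genes both mutant values were the lower ones. So were they in ceh-37, whose values are given above (-0.29, SE 0.11, limma adjusted p = 0.443), and in the NK-like gene ceh-9, at 9.80 and 8.20 FPKM in wild type against 7.29 and 7.25 in the mutant (-0.27, SE 0.15, limma adjusted p = 0.578).

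The transcripts of a gene did not always behave as its sum. Of the 61 members, 12 had more than 1 RefSeq transcript in the table. Each transcript was also tested alone by limma, which was chosen after seeing the data. Of 54 ceh transcripts 1 passed (1.85%), near the 1.87% of all 20798 transcripts that did. It was the second listed transcript of the NK-2 gene ceh-27 (F46F3.1, chromosome V, 11661549 to 11665102), listed at 0 in both wild-type libraries, whereas the mutant libraries had 12.2 and 10.2 FPKM (limma adjusted p = 0.0296). This second transcript met the filter of 1 FPKM through its mutant values alone, and its values of 0 left no spread in wild type. The p-value therefore adds no separate support to the listed values. The first transcript of ceh-27 stood at 27.9 and 35.9 FPKM in wild type against 35.3 and 31.5 in the mutant, with overlapping groups. The gene sum, 27.9 and 35.9 against 47.5 and 41.7 FPKM, was therefore apart between genotypes only through the second transcript: the log2 fold change was 0.48 (SE 0.18, 95% interval -0.05 to 1.01, limma adjusted p = 0.457) for the sum and 0.08 for the first transcript alone. The call on the second transcript was lost without either wild-type library (limma adjusted p = 0.111 each time), with a filter at 5 FPKM (0.228) and with the replicate number as a block (0.238). Among the 9529 transcripts of the 3498 genes with more than 1, 60 were at 0 in both wild-type libraries and at 5 FPKM or more in both of the mutant, and the opposite held for 59. Exons of ceh-27 also overlap another gene, F46F3.22, on the same strand, and 13 of the 46 tested members share exon positions with some other gene. These include ceh-19 and ceh-37, both lower in the mutant, and ceh-8, which overlaps ZK265.11 on the same strand.

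**Figure D4:**
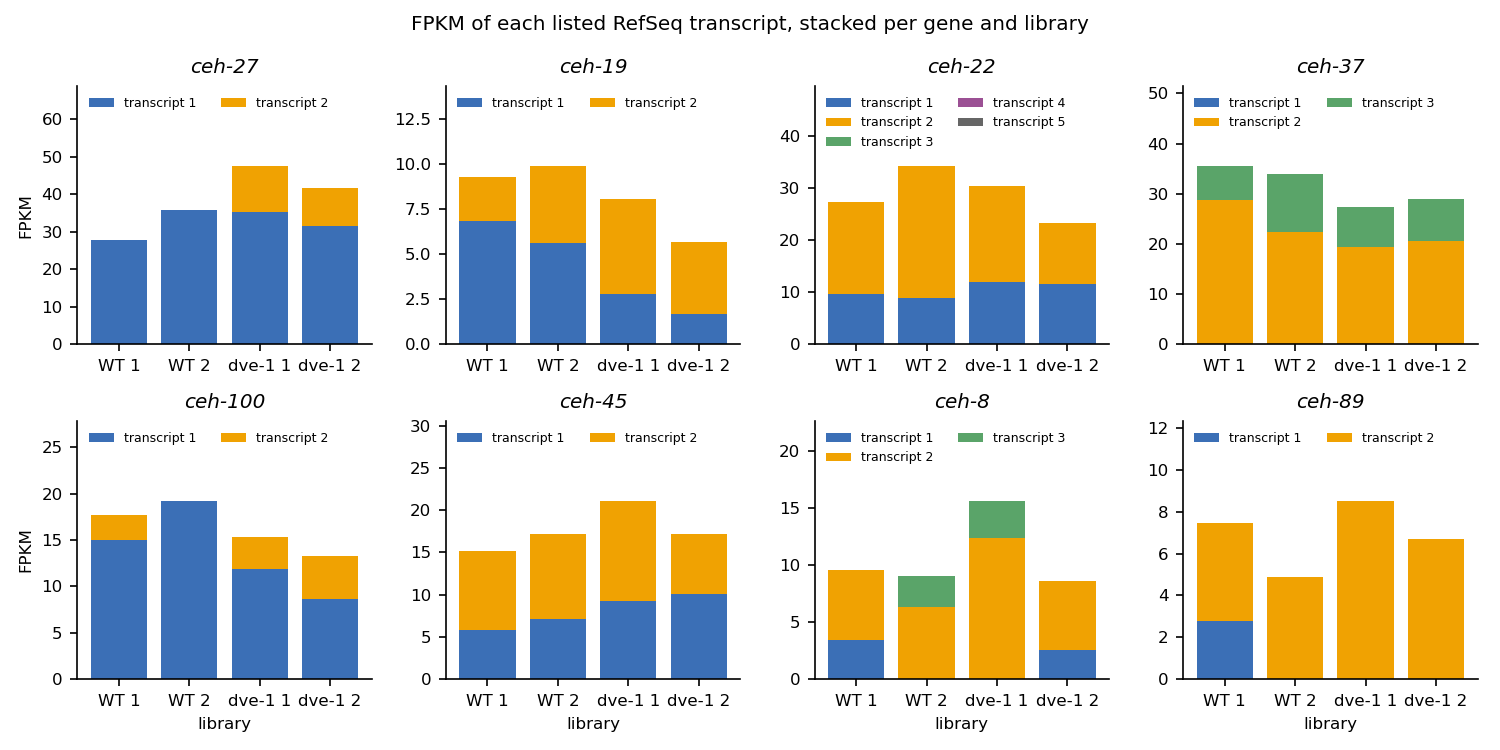
FPKM of each listed RefSeq transcript (colours, numbered in accession order) stacked for 8 ceh genes in each library (WT, wild type; dve-1, mutant; replicate 1 and 2). The second transcript of ceh-27 appears in the mutant libraries alone, at 12.2 and 10.2 FPKM, and the first transcript of ceh-19 is lower in both mutant libraries, at 2.79 and 1.70 FPKM.

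The transcripts of ceh-19 were also unequal. Its first transcript stood at 6.84 and 5.60 FPKM in wild type against 2.79 and 1.70 in the mutant, and its second at 2.47 and 4.29 against 5.30 and 3.99 FPKM. The first was apart between genotypes (log2 fold change -1.17, SE 0.28, 95% interval -1.999 to -0.34) without passing over all transcripts (limma adjusted p = 0.297), and the second overlapped. In ceh-22 the first transcript stood at 9.72 and 8.82 FPKM in wild type against 11.99 and 11.5 in the mutant, and the second at 17.6 and 25.4 against 18.4 and 11.7 FPKM. Its other 3 listed transcripts were at 0 in all libraries. In ceh-45 the first transcript was also apart, at 5.77 and 7.08 against 9.21 and 10.1 FPKM, and the second, at 9.35 and 10.1 against 11.9 and 7.02 FPKM, was not. In ceh-8, 1 transcript was present in all 4 libraries and the other 2 took turns, each listed at 0 in 2 libraries, 1 of each genotype. For ceh-89 the noncoding transcript was listed in all 4 libraries, at 4.72 and 4.86 against 8.51 and 6.69 FPKM, and the coding one only in the first wild-type library, at 2.76 FPKM. In ceh-38, 1 of 4 listed transcripts carried all of the signal.

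Replicates differed in a shared direction within each genotype. Of the 46 tested members, 31 had the larger value in the second wild-type library, against 50.6% of all tested genes, and 35 had it in the first mutant library, against 52.4%. Both held in 25 members (54.3%), against 29.0% of all tested genes and 31.7% of tested protein-coding genes, and in 17 of the 35 other homeobox genes tested (48.6%). The reverse held in 5 members (10.9%), against 21.6% of all tested genes and 24.5% of tested protein-coding genes, and in 1 other homeobox gene (2.86%). Markers of cuticle synthesis, which cycles with the moults, went the other way. Their 7 genes summed to 567 and 18.8 FPKM in wild type against 40.2 and 251 in the mutant. The sum of the 4 intestinal markers went that way too, at 264 and 237 FPKM against 163 and 243. So did that of the 4 hypodermal markers, at 93.1 and 77.2 against 56.7 and 73.6 FPKM. The 2 body wall muscle markers with values went with most ceh genes, at 371 and 498 against 438 and 431 FPKM. Single genes did not all follow these sums. The 3 pharyngeal muscle myosin genes summed to 366 and 595 FPKM in wild type and to 539 and 507 FPKM in the mutant, and the 6 neuronal markers with values to 365 and 380 and to 419 and 414 FPKM. The gene ric-4 weighed most in the neuronal sum, with a mean of 164 FPKM for wild type against 204 for mutants. Means of rab-3, snt-1 and unc-13 were also higher in mutants, whereas unc-64 (65.4 against 57.4) and unc-10 (25.3 against 19.7) were lower. Between replicates ric-4 ran against the sum in both genotypes and unc-13 in mutants only, and the others followed it. The part of the marker genes in the ceh values was not tested. Between the wild-type libraries (second minus first) the median ceh shift was 0.09 on the log2 scale, and between the mutant libraries it was -0.18. Over all tested genes these medians were 0.004 and -0.02, and over the other homeobox genes tested 0.21 and -0.096. Without sign, the ceh median was 0.175 between wild-type libraries and 0.187 between mutant libraries. The median absolute log2 fold change of the ceh genes between genotypes was 0.202, about as large.

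**Figure D5:**
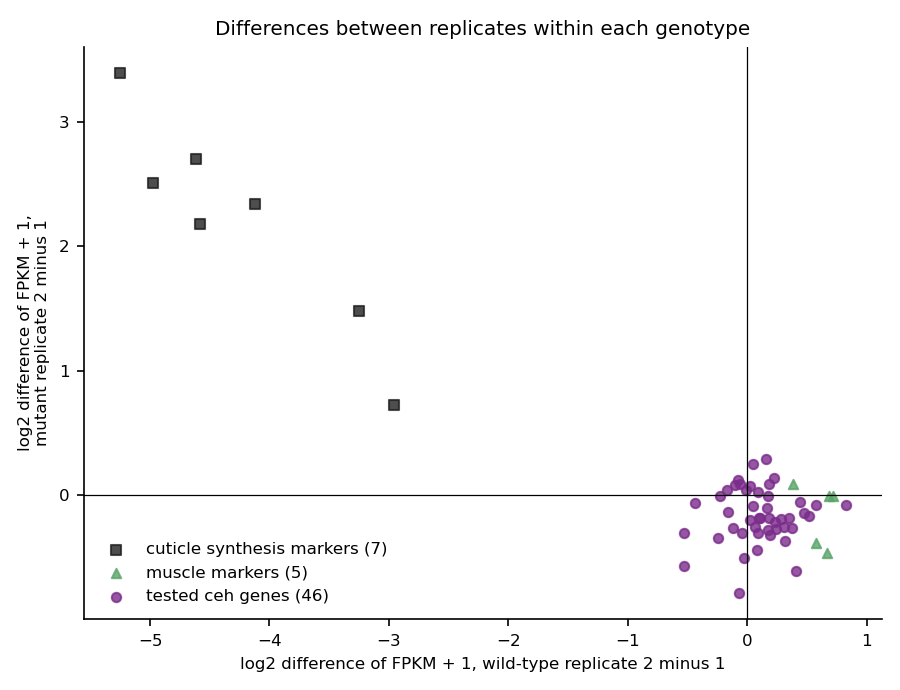
Log2 difference of FPKM + 1 between replicates, second minus first, in wild type (horizontal) and in the mutant (vertical), for the 46 tested ceh genes (purple), 5 muscle markers (green) and 7 cuticle synthesis markers (black). The cuticle markers lie far to the upper left, and 25 of the 46 ceh genes lie at the lower right.

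No homeobox gene without a ceh name passed the test either. Of 38 such genes listed, 36 had values and 35 were expressed in wild type. Of the 35 tested, 0 passed in either direction by limma, against 1.66% of all tested genes. An unadjusted p under 0.05 was seen in 2 (5.71%), against 11.9% of all tested genes. The 35 had a median log2 fold change of 0.04. The most abundant was unc-42, a paired-like gene of command interneurons, at 59.3 and 77.5 FPKM in wild type against 93.9 and 72.8 in the mutant. The gene unc-62, a Meis-type partner of PBC proteins such as CEH-20, stood at 48.6 and 56.2 against 42.5 and 48.2 FPKM. Next were irx-1 with wild-type and mutant means of 45.7 and 40.01 FPKM, the Pax6 gene vab-3 with 45.01 and 34.4 FPKM and nsy-7 with 40.3 and 45.6 FPKM. The 3 largest positive differences were in the caudal-type gene pal-1 (log2 fold change 0.66), in dve-1 (0.49) and in the Meis-type gene psa-3 (0.41), and the 3 largest negative ones in the posterior Hox gene egl-5 (-0.39), vab-3 (-0.36) and the GABAergic regulator unc-30 (-0.32), all short of the threshold (limma adjusted p = 0.415 to 0.627). Single libraries moved 3 of these: pal-1 (SE 0.42) stood at 0.14 without the first wild-type library and 1.17 without the second, vab-3 (SE 0.20) at -0.59 and -0.14 likewise, and unc-30 (SE 0.26) at -0.63 without the first mutant library and -0.01 without the second. Of the other Hox genes, lin-39 had wild-type and mutant means of 26.6 and 31.6 FPKM, mab-5 of 29.9 and 27.96 FPKM and php-3 of 27.5 and 32.3 FPKM.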

How the data were processed

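Total RNA of whole L1 larvae was sequenced in 4 libraries, 2 per genotype. Titles gave the group and replicate number of each. The authors deposited FPKM per RefSeq accession and library. The submitters' processing notes name TopHat2, Cufflinks and build ce11. No version, strand setting or rule for multiply aligned reads is given in the sources used here.

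Accessions (52491) were matched without version to the RefSeq gene table of WBcel235, the same assembly as ce11. Of these, 47645 matched, FPKM were summed per gene, and 4846 did not match and were left out. Overlapping exons were looked up in the Ensembl annotation. Genes averaging 1 FPKM or more were tested on log2(FPKM + 1) by limma 3.58.1 (R 4.3.3), two-sided, using an intensity trend, with Benjamini-Hochberg adjustment. Fold changes on this scale understate changes of low genes. The fit was also run on simulated data with independent noise for each gene. Those data hold no shift shared by genes between replicates, so the run does not check the fit on these libraries. The members, lists and tests were chosen with earlier results of these data known. Members with a mean of at least 5 FPKM, the 5 largest differences each way and any past the threshold were named with all values; other members were named after their values were seen. Of other homeobox genes, the 5 most abundant and the 3 largest differences each way were named, and others after their values were seen.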

Additional observations from a re-analysis of the deposited data

How the results depend on the processing

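No ceh gene and no other homeobox gene passed the limma test under any of the 13 alternatives with 1 value per gene; testing each transcript alone gave 1 ceh call. The count of ceh genes expressed in wild type was 34 at 5 FPKM, 50 at 0.5 FPKM and 46 to 47 otherwise. The median log2 fold change of the ceh genes was -0.118 under median-ratio scaling, which moved the median of all tested genes by 0.106, from 0.0949 to -0.0113; relative to all genes it was -0.0962 without and -0.107 with that scaling. Under it the mutant pair lay wholly below the wild-type pair in 19 ceh genes in place of 10 (23.5% of all tested genes in place of 15.9%) and above it in 8 (19% in place of 28.1%). With a filter at 5 FPKM it lay wholly above in 6 of 37 (29.6% of all genes tested there) and wholly below in 8 (17%). These counts and the transcript test were added after seeing the data. The causes were not tested. The log2 fold change of ceh-20 turned to -0.114 under median-ratio scaling, to -0.0429 under quantile normalization, to -0.0195 without the first wild-type library and to -0.0381 without the first mutant library (range with 1 library left out -0.0381 to 0.0522). With 1 library left out the ceh median ran from -0.061 to 0.0556. Of the 19 genes whose fold change was recomputed, the other 18 kept their sign in every alternative that tested them; the remaining ceh genes were not followed singly.

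Over all genes the count of calls was 252, and it was 105 at a mean of at least 5 FPKM, 391 without the intensity trend, and 369 to 767 with 1 library left out, where the lone library is assumed to vary like the others. With the replicate number as a block it was 0. The labels do not say that a number marks a shared culture, and deviations of same-numbered libraries correlated at -0.0562 over tested genes. The depth is unknown, and for 9 of the 46 tested members the 95% interval reached a 2-fold change.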
